A study of Mus musculus with 12 samples.

Results

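The genes described here encode the centromere, the kinetochore and the spindle checkpoint, the machinery that holds chromosomes on the mitotic spindle. The members were a list of 34 named genes, taken by symbol or by an older synonym, with no measured value in the rule. All 34 were found among 23102 genes of the array, Mis18a and Ska3 through older symbols. The values came from 12 oral tumours of C57BL/6 x FVB F1 mice that had been given tamoxifen into the peritoneum, on Affymetrix Mouse Gene 2.0 ST arrays read by exon, 1 array for each tumour. In the group written KR, 6 tumours expressed RAS. In the group written KHR, 6 tumours expressed RAS and a construct written iHPV, for which a further label names E6 of human papillomavirus (HPV). Both groups shared the strain cross, the tamoxifen and RAS. The labels do not spell out KR and KHR, and state neither age and sex nor what drives the expression of RAS or iHPV. They also do not say whether each tumour came from its own animal. The p-values then measure only how far these samples spread, which may not be the spread between animals.

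A centromere is marked by nucleosomes that hold the histone variant CENP-A in place of ordinary H3. On these sits a constitutive network of CENP proteins, the inner kinetochore, which in turn carries the Mis12 and Ndc80 complexes that grip microtubules. Kinetochores without attached microtubules recruit the kinases and scaffolds of the spindle checkpoint, which hold back anaphase. Many of these genes are transcribed in G2 and mitosis under the DREAM and MMB complexes, while others are transcribed at the G1/S boundary with E2F targets. HPV oncoproteins are known to drive infected squamous cells into the cell cycle.

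Keratinocyte markers were measured as a check of the tissue. None of 6 passed the test, and their mean log2 level was 11.36 to 11.60 on KR arrays and 11.47 to 11.77 on KHR arrays. Epcam differed by 0.88 (log2, KHR minus KR; limma adjusted p = 0.067). The other markers of that list differed by -0.25 (Itgb4) to 0.16 (Trp63). The arrays' median log2 intensity over all probesets was 5.62 to 5.75. Xist, from the inactive X chromosome, was high on 2 KR arrays and 4 KHR arrays. In whole tumours, more dividing cells and more transcript in each cell cannot be told apart. The number of arrays, 6 a group, is among the limits on precision.

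Kinetochore and checkpoint genes rose in KHR tumours in part of the list, and none fell. Of the 34 genes, 12 were higher in KHR tumours at an adjusted p under 0.05 (limma over all genes), against 2.71% of all genes tested. None was lower, against 1.03% of all genes. At an unadjusted p under 0.05, 23 were higher and 0 lower, against 9.64% and 6.21% of all genes. The median change, KHR minus KR on the log2 scale, was 0.54 over the 34 genes and 0.00 over all genes. Differences ran from -0.09 to 1.16, and 31 of the 34 were positive. For 9 members every KHR array lay above every KR array, against 1.83% of all genes. No member had every KHR array below, against 0.84% of all genes. The list was chosen with earlier results of these data known, and these counts describe it without a test of the list.

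**Figure D1:**
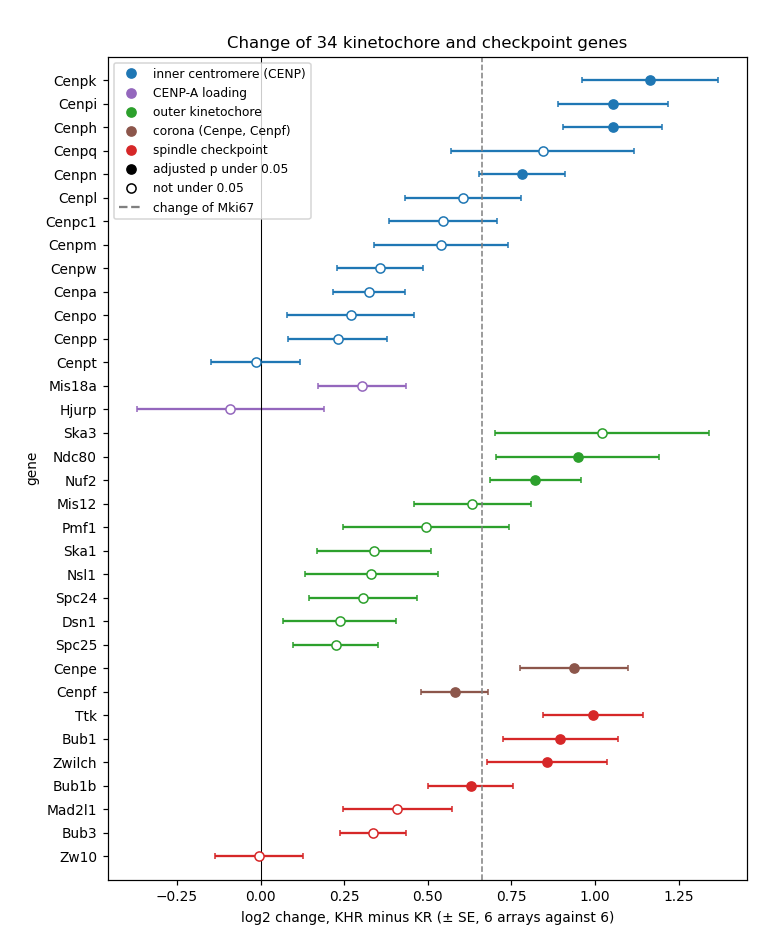
Log2 change (KHR minus KR) of the 34 genes with its standard error, 6 arrays against 6, grouped by role. Filled points passed the test and the dashed line is the change of Mki67, 0.66. Cenpk, Cenpi and Cenph lie farthest to the right, and Cenpt, Zw10 and Hjurp lie at about 0.

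Promoters are shown because many genes of this kind carry known cell cycle elements near their start sites, and because members with and without such letters can be set beside their changes. RefSeq promoters of the assembly GRCm38.p6, 250 bases before to 50 after each start, were found for 30 of the 34 members. The letters searched, on both strands, were TTTGAA and TTCGAA, forms of the CHR element that DREAM and MMB are known to bind, CCAAT, the core of the NF-Y box, TTCCCGC and TTGGCGC, forms of the E2F site, and GGGCGG, the core of the Sp1 box. GGGCGG can share letters with TTCCCGC on the other strand, each word was counted alone, and a gene with several starts was counted once. The windows below run from 150 bases before to 30 after the start, 5′ to 3′ along the gene, with matches in capitals; Ttk, Cenpf, Bub1 and Nuf2 rose and Cenpt did not pass.
Ttk, chr9:83834539-83834718, plus strand: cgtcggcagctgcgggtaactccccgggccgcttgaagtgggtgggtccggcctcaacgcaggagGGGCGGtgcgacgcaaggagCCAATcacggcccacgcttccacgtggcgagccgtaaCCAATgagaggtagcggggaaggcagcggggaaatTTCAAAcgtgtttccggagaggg
Cenpf, chr1:189688057-189688236, minus strand: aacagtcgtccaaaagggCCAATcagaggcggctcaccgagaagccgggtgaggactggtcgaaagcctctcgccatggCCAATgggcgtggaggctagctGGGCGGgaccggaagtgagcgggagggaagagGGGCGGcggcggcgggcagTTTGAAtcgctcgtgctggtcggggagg
Bub1, chr2:127831830-127832009, minus strand: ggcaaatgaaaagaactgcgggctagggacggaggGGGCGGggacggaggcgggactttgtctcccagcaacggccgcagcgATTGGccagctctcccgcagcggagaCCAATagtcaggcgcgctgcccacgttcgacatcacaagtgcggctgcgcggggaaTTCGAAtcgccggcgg
Nuf2, chr1:169531435-169531614, minus strand: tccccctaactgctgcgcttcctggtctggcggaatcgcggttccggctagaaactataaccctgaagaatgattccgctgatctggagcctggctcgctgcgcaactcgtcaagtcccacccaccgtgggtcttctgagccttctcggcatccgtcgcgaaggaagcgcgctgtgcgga
Cenpt, chr8:105851979-105852158, minus strand: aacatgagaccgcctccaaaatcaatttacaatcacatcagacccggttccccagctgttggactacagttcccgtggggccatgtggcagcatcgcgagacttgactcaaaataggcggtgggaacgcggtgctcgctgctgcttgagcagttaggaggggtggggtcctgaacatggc

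In these windows Ttk, Cenpf and Bub1 each hold a CHR form within the first bases of the transcript, 2 CCAAT words before the start and at least 1 GGGCGG. Nuf2 and Cenpt hold none of the 6 words in this window or in their full promoters, and Nuf2 rose with all of its probesets positive while Cenpt did not. TTTGAA was found in the promoters of 14 of 30 members (46.7%) against 20.2% of 27025 genes, and TTCGAA in 4 (13.3%) against 1.8%. CCAAT was found in 20 (66.7%) against 41.1%, and GGGCGG in 20 (66.7%) against 38.2%. TTCCCGC was found in 9 (30%) against 5.29%, and TTGGCGC in 1 (3.33%) against 2.85%. Among the members that rose, 11 had a promoter, and among the others 19. TTTGAA was in 5 of the 11 and 9 of the 19, TTCGAA in 2 and 2, TTCCCGC in 3 and 6, and TTGGCGC in 0 and 1. CCAAT was in 9 of the 11 and 11 of the 19, and GGGCGG likewise in 9 and 11. These are matches of letters and were not tested.

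Among the inner centromere genes, 4 of 13 rose (median change 0.55). The largest changes were those of Cenpk, Cenpi and Cenph. These encode subunits of the CENP-HIKM complex, which links CENP-C and CENP-T within the inner kinetochore. Cenpk was 5.74 at the lowest, 6.55 at the median and 7.27 at the highest KR array, and 7.50, 7.74 and 7.81 on the KHR arrays. It rose by 1.16 ± 0.20 (SE; adjusted p = 0.00598). The groups did not overlap, and the KR arrays were spread more widely than the KHR arrays, with SDs of 0.54 and 0.12. Cenpi, which lies on the X chromosome, was 6.69, 7.37 and 7.57 at the lowest, median and highest KR array and 8.05, 8.30 and 8.79 on the KHR arrays. It rose by 1.05 ± 0.16 (adjusted p = 0.00275), and by 0.97 with the Xist level as a covariate (adjusted p = 0.0074), again with no overlap. Cenph was 5.12, 5.46 and 5.84 on the KR arrays and 6.11, 6.46 and 6.93 on the KHR arrays. It rose by 1.05 ± 0.15 (adjusted p = 0.00141), with no overlap either. The remaining HIKM subunit gene, Cenpm, differed by 0.54 ± 0.20 (adjusted p = 0.186), with 5 of 6 KHR arrays above the highest KR array and KHR 5 within the KR range. It passed only without KHR 5 (adjusted p = 0.0389), and leaving out any of the 11 other arrays gave up to 0.345.

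Among the members that belong to the other inner complexes 1 gene rose. This was Cenpn, whose protein reads the CENP-A nucleosome together with CENP-L. It went from 7.58 ± 0.27 to 8.36 ± 0.18 (SD, n = 6 each), a change of 0.78 ± 0.13 (SE; adjusted p = 0.00401) with no overlap. Cenpl differed by 0.61 ± 0.17 and did not pass (adjusted p = 0.0754). It passed only without KR 4 (adjusted p = 0.0206), and leaving out any of the 11 other arrays gave up to 0.151. In the CENP-OPQUR complex, Cenpq differed by 0.84 ± 0.27 (adjusted p = 0.118), with wide spreads of 0.44 and 0.63 (SD) in KR and KHR. It passed only without KHR 1 (adjusted p = 0.0214), and leaving out any of the 11 other arrays gave up to 0.234. Cenpo and Cenpp of that complex differed by 0.27 ± 0.19 and 0.23 ± 0.15 (adjusted p = 0.556 and 0.511). In the CENP-TWSX complex, a histone-fold assembly and a second route to the Ndc80 complex, Cenpt had a KR mean of 7.45 ± 0.21 and a KHR mean of 7.44 ± 0.26 (SD, 6 arrays each). Its difference was -0.01 ± 0.13 (SE; adjusted p = 0.979), and Cenpw differed by 0.36 ± 0.13 (adjusted p = 0.164). Cenpc1, the gene of the CENP-C scaffold, differed by 0.55 ± 0.16 (adjusted p = 0.0848). It passed only without KHR 1 (adjusted p = 0.0348), and leaving out any of the 11 other arrays gave up to 0.176. Cenpa, the histone variant itself, differed by 0.32 ± 0.11 (adjusted p = 0.128).

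Neither of the 2 genes of CENP-A deposition passed. Mis18a, of the complex that licenses centromeres for new CENP-A, differed by 0.30 ± 0.13 (adjusted p = 0.273). Hjurp, the CENP-A chaperone, differed by -0.09 ± 0.28 (adjusted p = 0.930) and was spread over 5.79 to 7.55 on the KHR arrays. That value rests on 1 probeset. A further 14 probesets carry several symbols in the platform table, all of which are names of Hjurp in the RefSeq table. With these joined, the 15 probesets gave a KR mean of 8.07 ± 0.37 and a KHR mean of 8.29 ± 0.23 (SD, 6 arrays each), a difference of 0.22 ± 0.17 (SE; adjusted p = 0.590). None of the 15 passed the test per probeset.

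Of the 10 outer kinetochore genes, 2 rose, both from the Ndc80 complex (median change of the 10 genes 0.42). Ndc80, whose protein binds microtubules directly, was 6.70 at the lowest, 7.75 at the median and 8.42 at the highest KR array, and 8.09, 8.68 and 9.04 on the KHR arrays. The groups overlapped, since KHR 1 lay below KR 6. Ndc80 rose by 0.95 ± 0.24 (SE; adjusted p = 0.0468), a call lost on leaving out any of 10 arrays, which gave adjusted p-values up to 0.0985. Nuf2, its dimer partner, whose promoter held none of the words searched, rose from 7.13 ± 0.24 to 7.95 ± 0.24 (SD, n = 6 each). The change of Nuf2 was 0.82 ± 0.14 (SE; adjusted p = 0.00401), with no overlap. Spc24 and Spc25, the subunits that dock the complex on the kinetochore, differed by 0.31 ± 0.16 and 0.22 ± 0.13 (adjusted p = 0.390 and 0.436).

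In the Mis12 complex, the bridge between both layers, none of 4 genes passed. Mis12 differed by 0.63 ± 0.17 (adjusted p = 0.0649; 0.0197 without KHR 1) and Pmf1 by 0.49 ± 0.25 (adjusted p = 0.357). Mis12 passed only without KHR 1 or KHR 2, and leaving out any of the 10 other arrays gave adjusted p-values up to 0.134. Nsl1 and Dsn1 differed by 0.33 ± 0.20 and 0.24 ± 0.17 (adjusted p = 0.471 and 0.563). Of the Ska complex, which holds kinetochores on moving microtubule ends, Ska3 differed by 1.02 ± 0.32 but was spread over 5.66 to 7.32 in KR and 6.34 to 8.04 in KHR tumours (adjusted p = 0.105). It passed only without KHR 1 (adjusted p = 0.0323) or without KR 5, and leaving out any of the 10 other arrays gave up to 0.209. Ska1 differed by 0.34 ± 0.17 (adjusted p = 0.361). Spc24 and Ska1 were the dimmest members, with KR means of 4.61 and 4.72, and the values carry no detection call that would show whether they lay above background.

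Both large proteins of the outer corona, the fibrous layer that catches microtubules from the side, had genes that rose. Cenpe, a kinesin of chromosome alignment, was 7.44, 7.92 and 8.36 at the lowest, median and highest KR array and 8.27, 8.91 and 9.17 on the KHR arrays. It rose by 0.94 ± 0.16 (SE; adjusted p = 0.00537). Of the KHR arrays, 5 lay above every KR array and KHR 1 lay below KR 4. Cenpf, a coiled-coil protein of G2 and mitosis, rose from 6.83 ± 0.17 to 7.41 ± 0.15 (SD, n = 6 each), by 0.58 ± 0.10 (SE; adjusted p = 0.00563), with no overlap.

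Among the spindle checkpoint genes, 4 of 7 rose (median change 0.63). Ttk, the Mps1 kinase that starts the checkpoint signal, and the first of the printed promoters, was 6.95, 7.54 and 7.80 at the lowest, median and highest KR array and 8.13, 8.49 and 8.81 on the KHR arrays, with no overlap. It rose by 0.99 ± 0.15 (SE; adjusted p = 0.00217). Bub1, the kinase and scaffold at the kinetochore, was 7.48, 7.65 and 8.15 on the KR arrays and 7.95, 8.68 and 9.09 on the KHR arrays. It rose by 0.90 ± 0.17 (adjusted p = 0.00998), and KHR 1 fell inside the KR range. Zwilch, of the RZZ complex that brings checkpoint proteins and dynein to the corona, was 6.34, 6.996 and 7.20 on the KR arrays and 7.23, 7.79 and 8.03 on the KHR arrays. It rose by 0.86 ± 0.18 (adjusted p = 0.0168), and the groups were separated only by the gap between 7.20 and 7.23. Bub1b, the gene of BubR1 in the inhibitor of the anaphase-promoting complex, rose from 7.53 ± 0.18 to 8.16 ± 0.26 (SD, n = 6 each), by 0.63 ± 0.13 (SE; adjusted p = 0.0138).

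The remaining checkpoint genes did not pass. Mad2l1, the Mad2 protein that sequesters Cdc20, differed by 0.41 ± 0.16 (adjusted p = 0.221). Bub3, which carries Bub1 and BubR1 to the kinetochore, differed by 0.34 ± 0.10 (adjusted p = 0.0856). It passed only without KHR 2 (adjusted p = 0.0330), and leaving out any of the 11 other arrays gave up to 0.168. Zw10, the RZZ partner of Zwilch with a further role in membrane traffic, had a KR mean of 7.78 ± 0.28 and a KHR mean of 7.78 ± 0.17 (SD, 6 arrays each), a difference of 0.00 ± 0.13 (SE; adjusted p = 0.993).

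**Figure D2:**
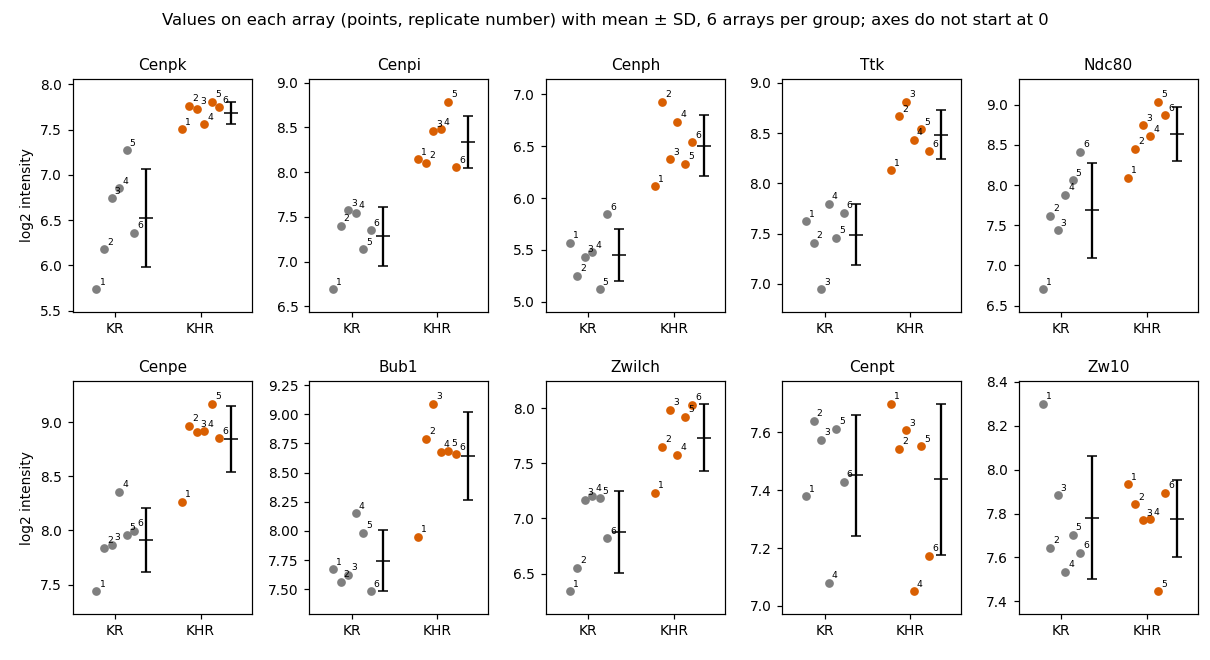
Log2 intensity of 10 genes on each array, with the replicate number beside each point and the mean ± SD of 6 arrays. The 8 genes with the largest called changes are followed by Cenpt and Zw10. For Cenpk, Cenpi, Cenph, Ttk and Zwilch the groups do not overlap, KHR 1 lies within the KR range for Ndc80, Cenpe and Bub1, and the groups overlap for Cenpt and Zw10.

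The arrays were not alike within either group. KHR 1 was the lowest KHR array for 16 of the 34 genes and for 9 of the 12 that rose, and no gene of those 12 was highest there. KHR 3 was the lowest for 0 of the 34. Among the KR arrays, KR 1 was lowest for 11 of the 34 and for 6 of the 12, and highest for 0 of the 12. KR 4 was highest for 12 of the 34 and for 6 of the 12. Averaged over the 34 genes, KHR 1 stood at 7.24 and the other KHR arrays at 7.38 to 7.63, while the KR arrays lay between 6.74 and 6.98. Mki67, the proliferation antigen gene, was likewise lowest of the KHR arrays on KHR 1, at 10.19 against 10.36 to 10.78. Leaving out KHR 1 gave 16 called members, all 12 and Cenpc1, Cenpq, Mis12 and Ska3. Calls over all genes then also rose above those with all arrays kept, to 1085, so the gain was not confined to the members. On leaving out any other array the count of called members lay between 11 and 13, and that of all genes between 523 and 826. Of the 12, 11 passed on leaving out each array in turn, and Ndc80 was the exception.

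Probesets within a gene mostly moved together. The 34 genes held 458 probesets, between 1 and 44 for a gene. Of these, 413, or 90.2%, had a positive change, against 50.6% of all probesets on the array. In a test per probeset over the whole array 31 were higher, against 0.616% of all probesets, and 0 were lower, against 0.267%. Cenpi had the most, 5 of 22, and Mad2l1 had 3 of 11 although its gene value did not pass. All 22 probesets of Ttk, all 24 of Bub1b and all 17 of Nuf2 had a positive change, as did 43 of 44 for Cenpe. For Cenpt 6 of 13 were positive and for Zw10 10 of 17, with 0 called in each. Probesets of a gene share their tumours and are not replicates.

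**Figure D3:**
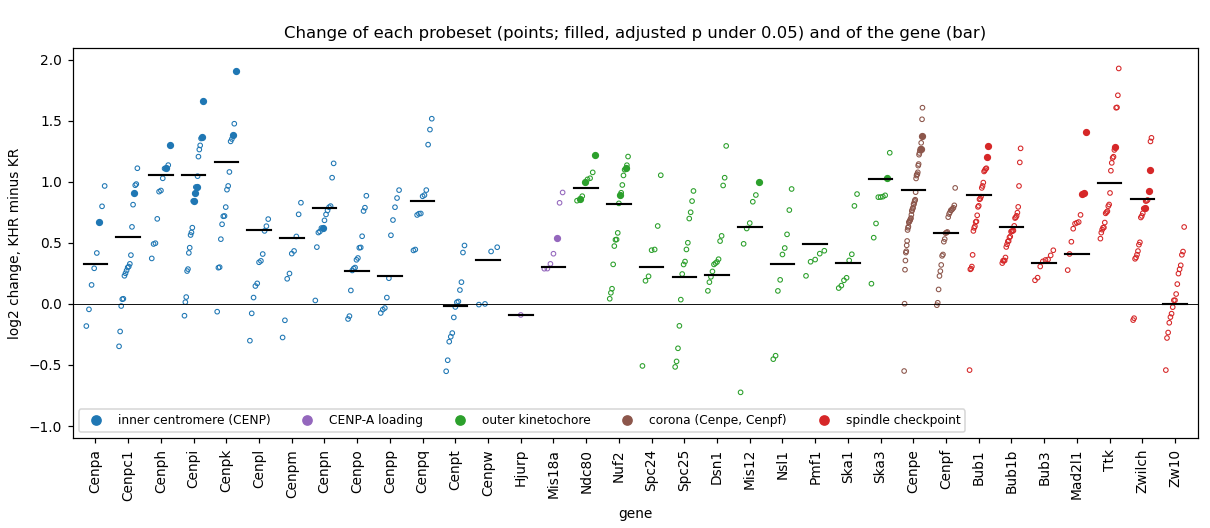
Log2 change (KHR minus KR) of each of the 458 probesets, by gene and coloured by role, with filled points at an adjusted p under 0.05 over all probesets. The bar is the gene's change, and 413 of the 458 points lie above 0.

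How probesets were joined changed many calls. Taking their mean rather than their median gave 23 members higher, against 4.21% of all genes, and median polish gave 21, against 3.47%. All 12 remained under both. The mean added Cenpa, Cenpc1, Cenpo, Cenpq, Mis18a, Dsn1, Mis12, Ska1, Ska3, Bub3 and Mad2l1. Mad2l1 rose by 0.70 with the mean (adjusted p = 0.00099) against 0.41 with the median, and Dsn1 by 0.50 (adjusted p = 0.00628) against 0.24. For Mad2l1, 9 of 11 probesets changed by more than the gene's value did, 1 changed by as much and 1 by less. Cenpl went the other way, with 0.27 against 0.61, and 9 of its 11 probesets lay below the gene's value. With probesets kept only where their mean over all arrays was above the median of all probesets, a choice made after seeing the data, 15 members were higher, against 4.02% of the genes then tested, with Cenpp, Dsn1 and Ska3 added. None of Cenpt, Zw10 and Hjurp passed under any of these summaries.

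**Figure D4:**
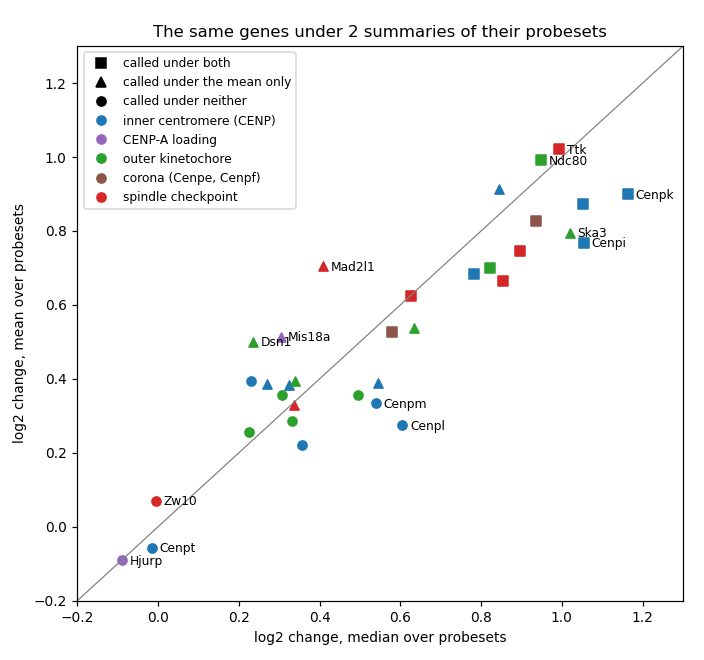
Log2 change (KHR minus KR) of each member with the median over probesets (horizontal) and the mean over probesets (vertical); the line marks equal values and the marker shows which summary called the gene. The 12 squares passed under both and 11 triangles passed with the mean. Mad2l1, Mis18a and Dsn1 lie above the line and Cenpl below it.

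The members were next set against Mki67, which rose by 0.66 ± 0.13 (SE; adjusted p = 0.00998), from 9.88 ± 0.21 to 10.54 ± 0.23 (SD, n = 6 each). With the level of Mki67 subtracted on each array, 1 member moved by more, against 0.468% of all genes. This was Cenpk, by a further 0.50 ± 0.20 (adjusted p = 0.0248), and no member was called without KR 1 or without KR 2. There were 2 without KHR 5, KHR 6 or KR 3, and 3 without KR 6. By less moved 6 members, against 83.8% of all genes. These were Cenpt (-0.68 ± 0.19), Zw10 (-0.67 ± 0.21), Hjurp (-0.75 ± 0.30), Spc25 (-0.44 ± 0.20), Cenpp (-0.43 ± 0.19) and Dsn1 (-0.42 ± 0.19), with adjusted p-values up to 0.0472, a number that depended on the arrays. It was 2 without KHR 5, KHR 6 or KR 3, 3 without KHR 3, KR 1 or KR 6, and 10 without KR 5. The others, among them 11 of the 12 that rose, could not be told from Mki67, which does not show that they moved alike. Adding the Mki67 level as a covariate left 0 members called in limma, against 0.0303% of all genes. At an unadjusted p under 0.05, 5 were then higher and 0 lower, against 4.35% and 2.59% of all genes. Sizes with the covariate differed among the 12. The log2 change of Cenph was then 1.21 (adjusted p = 0.256; 1.05 without the covariate), the log2 change of Cenpi 0.87 (adjusted p = 0.589; 1.05 without) and the log2 change of Nuf2 0.70 (adjusted p = 0.611; 0.82 without). The log2 change of Bub1b was 0.21 (adjusted p = 0.935; 0.63 without) and the log2 change of Ndc80 0.077 (adjusted p = 0.991; 0.95 without). Mki67 itself did not overlap between the groups, so in that fit its level and the group cannot be told apart.

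A list of 12 genes of DNA replication gave larger values under the same test. All 12 rose, against 2.71% of all genes, with a median change of 1.08, from 0.75 for Cdc45 to 1.62 for Prim1. Of these 12, 7 moved by more than Mki67. The replication list was chosen with earlier results of these data known, so these counts describe it and are no test of it. The difference between that list and the kinetochore genes was not tested. Cenpk, Cenpi and Cenph, at 1.05 to 1.16, fell within the replication genes' range, as did 7 others of the 12 that rose.

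Partner genes, most of them of one complex, were compared directly in 12 fixed pairs, as the difference between partners on each array. Hjurp and Mis18a were paired as genes of CENP-A deposition and not of one complex, and the Hjurp value rests on 1 probeset. No pair differed between the groups after adjustment over the 12 pairs (exact permutation test, two-sided; smallest possible p = 0.00216), and 2 did at an unadjusted p under 0.05. Zwilch moved by 0.86 ± 0.29 more than Zw10 (SE; exact permutation p = 0.0108, adjusted p = 0.130), with 5 of 6 KHR arrays beyond all KR arrays. With the mean over probesets or median polish this pair passed, at 0.60 and 0.59 (exact permutation p = 0.00216, the lowest value possible here, and adjusted p = 0.0260, in both). Bub1 moved by 0.27 ± 0.11 more than Bub1b (exact permutation p = 0.0476, adjusted p = 0.286). Cenph and Cenpk differed in their changes by -0.11 ± 0.31, Ndc80 and Nuf2 by 0.13 ± 0.26, and Spc24 and Spc25 by 0.08 ± 0.16. Ska1 and Ska3 differed by -0.68 ± 0.41 (exact permutation p = 0.128) and Cenpt and Cenpw by -0.37 ± 0.19 (exact permutation p = 0.0931).

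A further list of 23 kinetochore genes, 21 of them measured, held 9 that rose and none that fell, against 2.71% and 1.03% of all genes, with a median change of 0.50 and 18 of the 21 changes positive. At an unadjusted p under 0.05, 13 were higher and 0 lower, against 9.64% and 6.21% of all genes. This list too was chosen with earlier results of these data known. Cenpu, of the OPQUR complex, rose by 0.88 ± 0.12 (SE; adjusted p = 0.00125). Knl1, the platform on which Bub1 and Bub3 gather, rose by 0.75 ± 0.12, and Oip5, of the Mis18 complex, by 0.74 ± 0.14. Kntc1, the third gene of the RZZ complex, and Spdl1, its link to dynein, rose by 0.71 ± 0.14 and 1.16 ± 0.22. Trip13, the ATPase that recycles Mad2, rose by 0.73 ± 0.15, the Aurora B kinase gene Aurkb by 0.64 ± 0.10 and Knstrn, a microtubule-binding partner of astrin, by 0.65 ± 0.11. The adjusted p-values of these 8 were at most 0.0155. Ska2 rose by 0.60 ± 0.14 (adjusted p = 0.0265), a call lost on leaving out any of 8 arrays (up to 0.0667).

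Markers of other cell types were read on the same arrays. Means of marker lists, given as the range over arrays in KR and then KHR tumours, were 5.88 to 7.22 and 6.04 to 8.48 for 8 skeletal muscle genes, highest on KHR 5, and 8.46 to 9.95 and 8.65 to 9.62 for 6 fibroblast genes. They were 6.64 to 7.54 and 6.64 to 7.08 for 5 endothelial genes, 5.78 to 6.93 and 6.44 to 7.16 for 6 macrophage genes and 7.48 to 8.61 and 8.46 to 8.89 for 5 neutrophil genes. For T cells (5 of 6 genes measured) they were 3.90 to 4.47 and 3.91 to 4.48, and for B cells (4 of 5 measured) 3.87 to 4.06 and 3.97 to 4.13, with none of these genes past the test. The neutrophil mean was higher by 0.75 and the skeletal muscle mean by 0.56 in KHR tumours. Of the neutrophil genes, Cxcr2 rose by 0.83 (adjusted p = 0.00488). S100a8 and S100a9 differed by 1.08 and 1.32 and did not pass (adjusted p = 0.131 and 0.105). Csf3r and Ly6g differed by 0.37 and 0.15 (adjusted p = 0.492 and 0.785). The fibroblast gene Col1a2 fell by 0.80 (adjusted p = 0.0220), no other marker passed and no marker was listed at 0. Of the other fibroblast genes, Col1a1, Col3a1 and Lum differed by -0.63, -0.44 and -0.15. Dcn and Pdgfra went the other way, by 0.64 and 0.58, and the mean of the fibroblast list differed by -0.13. With the skeletal muscle mean as a covariate 11 members were higher, without Ndc80 and Zwilch and with Nsl1. The part of the other lists, the neutrophil list included, in the kinetochore results was not tested.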

How the data were processed

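Total RNA of 12 tumours, 6 KR and 6 KHR by their titles, was hybridised to 1 array each. The authors deposited log2 intensities for 269751 probesets; the base was taken from their range. Partek is named, with no version, per the submitters' processing notes. How background was corrected and values normalized, and on which build, is not stated in the labels. Probeset names came from GEO's annotation of the platform, with older symbols updated through RefSeq (GRCm38.p6). Of them 233753 had 1 symbol, 5106 several and 30892 none. A gene's value was the median of its probesets with 1 symbol, with no filter, for 23102 genes.

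Genes were tested with limma 3.58.1 (lmFit, eBayes; R 4.3.3), two-sided, 6 against 6 arrays, no covariate. P-values were adjusted by Benjamini-Hochberg over all genes, threshold 0.05. The fit was checked on simulated data. Pairs used scipy 1.17.1 and figures matplotlib 3.10.9. The members and lists were chosen with earlier results of these data known. The rule named all members, called genes of the further lists, and Mki67. Listed genes without a value are not analysed here. Alternatives covered probeset summaries, scalings, filters, variance models, covariates, the replicate number as a block, thresholds and leaving out each array; 2 probeset choices were added after seeing the data.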

Additional observations from a re-analysis of the deposited data

Results flagged for a closer look

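Of 68 groups of 6 arrays, 34 genes in each of KR and KHR, 5 held an array that stood apart from the rest by Dixon's criterion, which chance flags in about 1 of 20 groups. All 5 lay in the KHR group. KHR 1 was low for Cenpe at 8.27, against 8.85 on the next array, and for Cenpp at 5.14, against 5.62. KHR 2 was low for Mad2l1 at 8.04, against 8.57. KHR 5 was low for Zw10 at 7.45, against 7.77. KHR 3 was high for Dsn1 at 6.98, against 6.15.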

How the results depend on the processing

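The 12 members that rose stayed past the threshold, all 12, with both other probeset summaries, bright probesets, dim genes left out, at least 3 probesets, the trended robust variance model, array weights and the replicate block. Ndc80 alone was lost with quantile normalization, array medians subtracted and the Xist covariate. The count of 12 became 23 with the mean over probesets, 21 with median polish, 0 with the Mki67 covariate and 3 with a 2-fold minimum, and 11 to 16 on leaving out 1 array. No setting called a member lower. Of all calls, 72.4% were higher, and 56.8% with quantile normalization. The further list's 9 became 0 with the Mki67 covariate (5 at an unadjusted p under 0.05) and 1 with a 2-fold minimum. Pairs that differed went from 0 to 1 with the mean and with median polish. Members above Mki67 went from 1 to 2 with the mean and 5 with median polish, and 0 to 3 on leaving out 1 array; members below it, 6, to 2 to 10. With the replicate block 14 members were higher. All genes called, 863, became 1445 with the mean, 555 with Xist, 566 with muscle and 10 with Mki67, and on leaving out 1 array ran from 523, without KHR 4, to 1085, without KHR 1. Same-numbered arrays had correlations of deviations from -0.0029 to 0.234, so the numbers were not taken as pairs, and 1 of 6 numbers matched best with itself.

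Directions turned only for members not past the threshold. The log2 change of Cenpt turned to 0.0786 with Xist, 0.0033 with muscle and, on leaving out 1 array, ran from -0.0892 to 0.0626. The log2 change of Hjurp turned to 0.0575 with Xist, 0.0354 with muscle, 0.86 with Mki67 and 0.22 with its probesets joined, and ran from -0.2689 to 0.0834. The log2 change of Zw10 turned to 0.07 with the mean, 0.0636 with median polish, 0.0521 with array weights, 0.0668 with Xist, 0.13 with muscle and 0.38 with Mki67, and ran from -0.0538 to 0.0992. With Mki67 as a covariate, the log2 change of Cenpq turned to -0.44, the log2 change of Dsn1 to -0.1438, the log2 change of Ska1 to -0.0241 and the log2 change of Ska3 to -0.24. The causes were not tested. With no detection call, signal over background limits the dim members.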
